A study of Mus musculus with 4 samples.

Results

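The late cornified envelope (Lce) genes described here are 4 members of the Lce3 subfamily (Lce3b, Lce3c, Lce3e and Lce3f) and 6 members of the Lce1 subfamily (Lce1a1, Lce1b, Lce1c, Lce1d, Lce1f and Lce1g). They were read by symbol, as every probe that the platform annotation assigns to a listed gene, which gave 12 probes for 10 of the 12523 genes detected in the series. The list itself was chosen with earlier results of these data known. Total RNA of mouse dorsal skin was measured on 4 Illumina bead arrays, each holding a pool of 6 C57BL/6J mice 8 to 12 weeks old. The 4 groups of 1 array were IL-17A mini-circle DNA with IMQ, IL-17A mini-circle DNA, GFP mini-circle DNA with IMQ, and GFP mini-circle DNA. Every mouse had thus been injected with a mini-circle, which is a circular vector stripped of its bacterial backbone, and no uninjected group was analysed here. IMQ commonly stands for imiquimod, which activates Toll-like receptors and is applied to mouse skin as a model of psoriasis-like inflammation. The labels give no dose, schedule, injection site or interval, and do not say which cells expressed the mini-circle.

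Lce proteins are small, cysteine-rich proteins made late in keratinocyte differentiation. Transglutaminases crosslink them into the cornified envelope, the protein shell that replaces the plasma membrane of the dead outer cells of the epidermis. Their genes lie side by side in the epidermal differentiation complex, next to those of loricrin, involucrin, filaggrin and the small proline-rich proteins. In human skin, LCE1 genes are expressed in healthy epidermis, whereas LCE3 genes are low there and are induced by barrier injury and in psoriatic plaques, and a common deletion of LCE3B and LCE3C is associated with psoriasis.

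The starting regions of the genes are shown first, because both subfamilies sit in the same stretch of chromosome 3 and members of each share letters close to the start. RefSeq promoter sequences (GRCm38.p6) were matched by symbol for 9 of the 10 members. The 100 bases before each annotated start, 5′ to 3′, read as follows. Capitals mark the longest string shared by the Lce3 members (AGGATAAAAG), the longest shared by the Lce1 members (AGAGCCCAG), the longest shared by Lce3c, Lce3e and Lce3f (CTGTGCATCACACACCTG), and the TATA-like string ATAAAA, which is contained in the first. Each was searched on both strands, and the sets were chosen after the sequences were seen.
Lce3b: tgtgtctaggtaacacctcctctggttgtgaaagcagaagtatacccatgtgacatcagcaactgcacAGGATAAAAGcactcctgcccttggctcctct
Lce3c: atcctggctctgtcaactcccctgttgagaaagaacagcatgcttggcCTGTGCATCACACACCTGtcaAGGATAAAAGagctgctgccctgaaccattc
Lce3e: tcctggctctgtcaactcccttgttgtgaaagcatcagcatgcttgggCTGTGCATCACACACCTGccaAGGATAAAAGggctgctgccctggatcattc
Lce3f: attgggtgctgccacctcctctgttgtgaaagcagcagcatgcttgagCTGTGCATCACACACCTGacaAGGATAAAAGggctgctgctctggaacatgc
Lce1a1: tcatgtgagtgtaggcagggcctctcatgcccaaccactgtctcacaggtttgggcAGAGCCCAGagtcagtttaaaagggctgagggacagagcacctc
Lce1b: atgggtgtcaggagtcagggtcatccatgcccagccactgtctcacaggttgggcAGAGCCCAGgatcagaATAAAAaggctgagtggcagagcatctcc
Lce1c: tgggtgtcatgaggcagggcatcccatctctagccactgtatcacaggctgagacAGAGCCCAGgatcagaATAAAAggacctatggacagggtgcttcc
Lce1d: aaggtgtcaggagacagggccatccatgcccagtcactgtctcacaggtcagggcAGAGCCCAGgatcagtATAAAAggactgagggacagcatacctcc
Lce1g: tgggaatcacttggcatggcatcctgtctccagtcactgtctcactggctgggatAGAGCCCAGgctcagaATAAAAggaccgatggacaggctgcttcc
The windows of the Lce3 genes are chr3:92932879-92932978 (plus strand) for Lce3b, chr3:92944386-92944485 (plus strand) for Lce3c, chr3:92966961-92967060 (plus strand) for Lce3e and chr3:92992117-92992216 (plus strand) for Lce3f. Those of the Lce1 genes are chr3:92648308-92648407 (minus strand) for Lce1a1, chr3:92656927-92657026 (minus strand) for Lce1b, chr3:92679147-92679246 (plus strand) for Lce1c, chr3:92687211-92687310 (minus strand) for Lce1d and chr3:92752339-92752438 (minus strand) for Lce1g.

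Each shared string was read off these windows, so all members of its set hold it by construction. AGGATAAAAG started 31 or 32 bases before the annotated start in the 4 Lce3 members, and 0 of 5 Lce1 members held it. Among 32851 RefSeq promoter entries, 0.0883% held this string in the 250 bases before the start. Such shares say how common a string is, and enrichment was not tested. AGAGCCCAG started 44 or 45 bases before the start in the 5 Lce1 members with an entry. It was in 0 of 4 Lce3 members and in 0.883% of all entries. Neither string marks its whole subfamily: of the 11 other Lce genes with an entry, AGGATAAAAG was in Lce3d and not in Lce3a, and AGAGCCCAG was in Lce1e and in no other Lce1 gene. ATAAAA stood in 4 of 4 Lce3 and 4 of 5 Lce1 members and in 17% of all entries. The 18 bases CTGTGCATCACACACCTG stood 52 bases before the start in Lce3c, Lce3e and Lce3f, and 3 entries in all held them. Over the 250 bases before the start, aligned identity had a median of 58.2% among the 6 pairs of Lce3 members, 64.6% among the 10 pairs of Lce1 members, and 48.2% among the 20 pairs across subfamilies. Lce3c and Lce3e were the most alike, at 77.9%. Published consensus strings were searched in the same 250 bases on both strands. TGANTCA (AP-1) and AACNNGTT (Grainyhead-like) were in 0 of these 9 windows, against 6.75% and 3.64% of all entries. TTCNNNGAA (STAT) was also in 0 of 9, against 7.02%, and TTGCNNAA (C/EBP) in Lce3f alone, against 9.56%. TATAAA was in Lce3e, 243 bases before the start, and in Lce1d, 30 bases before it, against 12.4% of all entries. Only in Lce1d did it overlap the marked ATAAAA. These matches describe letters and do not show binding.

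All values that follow describe 1 pooled array per group. No test between groups was made, because no group had a replicate, and higher and lower refer to these 4 pools. The first values given are deposited probe signals, which are linear intensities with a background already subtracted and without scaling between arrays. The log2 differences and folds after them were computed here after normexp correction for background (offset 50), followed by quantile scaling. The offset shrinks the differences of dim probes. Signals of different probes were not read as relative amounts of RNA, since probes differ in brightness at equal RNA. Summed marker signals add several probes, so the brightest probes weigh most in them. In whole skin, fewer cells of a type and less RNA per cell cannot be told apart.

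Array medians of the signal lay between 7.85 (GFP with IMQ skin) and 8.80 (GFP skin), and the limit above which a probe was counted as detected was 12.5 to 13.7. All 12 member probes were above it on all 4 arrays, and the highest member signal, 18676 for Lce1c, was under the array maxima of 40513 to 46874. This does not show that bright probes, such as those of most Lce1 members, respond in proportion to RNA, which was not tested. The Il17a probe was above the limit on 1 of 4 arrays, IL-17A with IMQ, at 14.4. It may not match the mini-circle's transcript and was not used to check the labels. The GFP array stood apart in hair genes: 1 of 12 detected hair shaft and inner root sheath markers was above the limit there, with a summed signal of 55.3, against 12 of 12 and sums of 7596 to 30175 on the other arrays. The comparison of IL-17A with GFP skin under IMQ does not use the GFP array without IMQ. Basal and suprabasal markers of epidermis were detected on every array. Above the limit were 7 of 7 basal markers on all 4 arrays and 7 of 7 suprabasal markers in GFP skin. On the other arrays 6 of 7 suprabasal markers were above it, and Dsg1a was not.

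**Figure D1:**
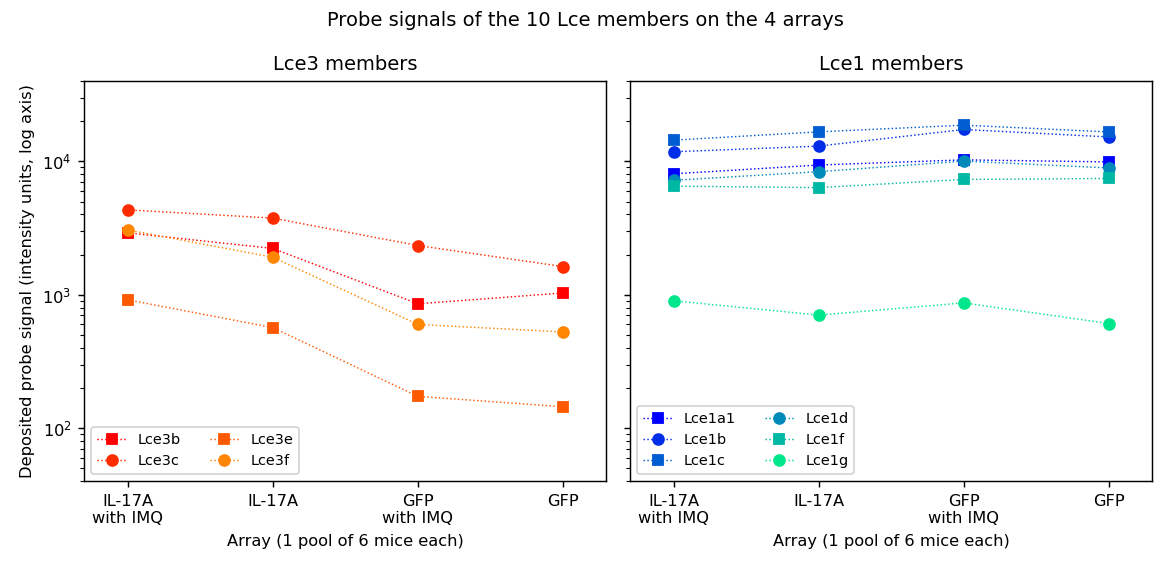
Deposited probe signals (log axis) of the 4 Lce3 and 6 Lce1 members on the 4 arrays, with 1 point per array and dotted lines joining the points of a probe. Each Lce3 probe was brighter on both IL-17A arrays than on both GFP arrays, whereas the 6 Lce1 probes kept within narrow ranges, such as 14426 to 18676 for Lce1c.

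Lce3 genes were higher in IL-17A than in GFP skin, both without and with IMQ, and Lce1 genes were not. Without IMQ the 4 Lce3 members were 2.05-fold to 3.26-fold higher in IL-17A skin, while the 6 Lce1 members lay between 1.16-fold lower and 1.10-fold higher. With IMQ the Lce3 members were 1.75-fold to 4.44-fold higher and the 6 Lce1 members were 1.04-fold to 1.40-fold lower, although Lce1g turned positive with median scaling and with no scaling. These 2 comparisons share no array.

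Lce3f, an envelope protein gene at the end of the Lce3 row, had the largest difference of the 10 members in both IL-17A comparisons when each gene was read by its brightest probe. Lce3e exceeded it without background correction (2.30 against 2.26 with IMQ, 1.93 against 1.82 without, on the log2 scale), as did the other Lce3b probes with IMQ. The Lce3f signal was 3061 in IL-17A with IMQ and 599 in GFP with IMQ skin, and 1912 in IL-17A and 527 in GFP skin. Both IL-17A arrays were thus above both GFP arrays. The Lce3f difference was 4.44-fold with IMQ, 31st from the top of 12523 genes, and 3.26-fold without IMQ, 59th from the top.

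Lce3e had signals of 916 in IL-17A with IMQ and 173 in GFP with IMQ skin, and 567 in IL-17A and 145 in GFP skin. It was 3.92-fold higher in IL-17A skin with IMQ and 2.92-fold higher without. The IL-17A arrays again stood above the GFP arrays, and within each pair the IMQ array was the brighter. Being dim, Lce3e was affected by the offset: the plain ratio of its signals was 5.29 with IMQ and 3.92 without.

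Lce3c, which shares its symbol with human LCE3C of the psoriasis-associated deletion, had another order of differences. Its signal was 4329.8 in IL-17A with IMQ and 2341 in GFP with IMQ skin, and 3755 in IL-17A and 1627 in GFP skin. It was 1.75-fold higher in IL-17A skin with IMQ and 2.30-fold higher without. The GFP with IMQ array lay above the GFP array by more than for the other Lce3 members, so that the IL-17A difference of Lce3c was smaller with IMQ.

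Lce3b was read by 3 probes, which ranked the arrays differently. The brightest, ILMN_2941749, gave 2913 in IL-17A with IMQ and 856 in GFP with IMQ skin, and 2226 in IL-17A and 1032 in GFP skin. ILMN_2619519 gave 1187 in IL-17A with IMQ and 106 in GFP with IMQ skin, and 601 in IL-17A and 159 in GFP skin. ILMN_2621158 gave 974 in IL-17A with IMQ and 112 in GFP with IMQ skin, and 402 in IL-17A and 97.8 in GFP skin. All 3 were higher on the IL-17A arrays, but the brightest differed least. With IMQ the folds were 3.05 for ILMN_2941749, 7.12 for ILMN_2619519 and 5.70 for ILMN_2621158, and without IMQ 2.05, 2.87 and 2.80. Lce genes are similar enough for a probe to bind a relative's transcript, and probe sequences were not used here, so cross-binding was not tested.

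In counts, the IL-17A comparison without IMQ placed 4 of 4 Lce3 members at least 2-fold higher, beside 0.854% of all genes, and the one with IMQ placed 3 of 4, beside 1.08% of all genes. The member below 2-fold with IMQ was Lce3c. In both comparisons 0 of 6 Lce1 members were 2-fold apart in either direction, beside 1.86% of all genes (1.01% lower) without IMQ and 1.37% (0.287% lower) with IMQ. The median log2 difference of the Lce3 members was 1.37 without and 1.79 with IMQ, beside 0.016 and 0.0035 for all genes. The member closest to 2-fold was Lce3b without IMQ, at a log2 difference of 1.03.

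Lce1 genes, part of the envelope of unchallenged epidermis, differed far less. Lce1c had signals of 14426 in IL-17A with IMQ and 18676 in GFP with IMQ skin, and 16647 in IL-17A and 16609 in GFP skin. Lce1b had 11794 in IL-17A with IMQ and 17332 in GFP with IMQ skin, and 13010.0 in IL-17A and 15239 in GFP skin. In these deposited signals, GFP with IMQ was the highest array and IL-17A with IMQ the lowest. After quantile scaling GFP with IMQ stayed the highest, but the lowest array changed for Lce1b. Its log2 values were 13.64 in IL-17A with IMQ and 13.61 in IL-17A skin. For Lce1c, IL-17A with IMQ and GFP skin were then level at 13.93.

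Lce1d had its highest and lowest signals on the same arrays. They were 7216 in IL-17A with IMQ and 10042 in GFP with IMQ skin, and 8370.2 in IL-17A and 8925 in GFP skin. Lce1a1 also did, with 8067 in IL-17A with IMQ and 10260.3 in GFP with IMQ skin, and 9390.2 in IL-17A and 9905 in GFP skin. Their log2 differences between IL-17A and GFP skin were -0.49 and -0.36 with IMQ, and -0.08 and -0.07 without.

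Lce1f and Lce1g departed from this order. Lce1f had 6517 in IL-17A with IMQ and 7321 in GFP with IMQ skin, and 6355 in IL-17A and 7443 in GFP skin, so both GFP arrays were above both IL-17A arrays. Lce1g, the dimmest member of its subfamily, had 901 in IL-17A with IMQ and 869.7 in GFP with IMQ skin, and 704 in IL-17A and 609 in GFP skin. Both IMQ arrays were highest for Lce1g. Its IL-17A difference with IMQ was -0.06 on the log2 scale, and 0.04 with median scaling and 0.05 with no scaling between arrays.

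Set against each other, the median log2 difference of the Lce3 members exceeded that of the Lce1 members by 1.45 without IMQ (1.37 against -0.08) and by 2.13 with IMQ (1.79 against -0.34). These gaps correspond to 2.73-fold and 4.39-fold. In both comparisons each of the 4 Lce3 differences was above each of the 6 Lce1 differences. The same held under the authors' normalized values of the same arrays, where the gaps were 1.54 and 2.35. Many other genes also lay above all 6 Lce1 members. The highest Lce1 member, Lce1g, was 3606th from the top of 12523 genes without IMQ and 7603rd with IMQ. The lowest Lce3 difference and the highest Lce1 difference were 1.03 and 0.14 without IMQ, and 0.80 and -0.06 with IMQ. A gap of this kind is taken within the same arrays, and a factor common to all probes of an array cancels in it.

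**Figure D2:**
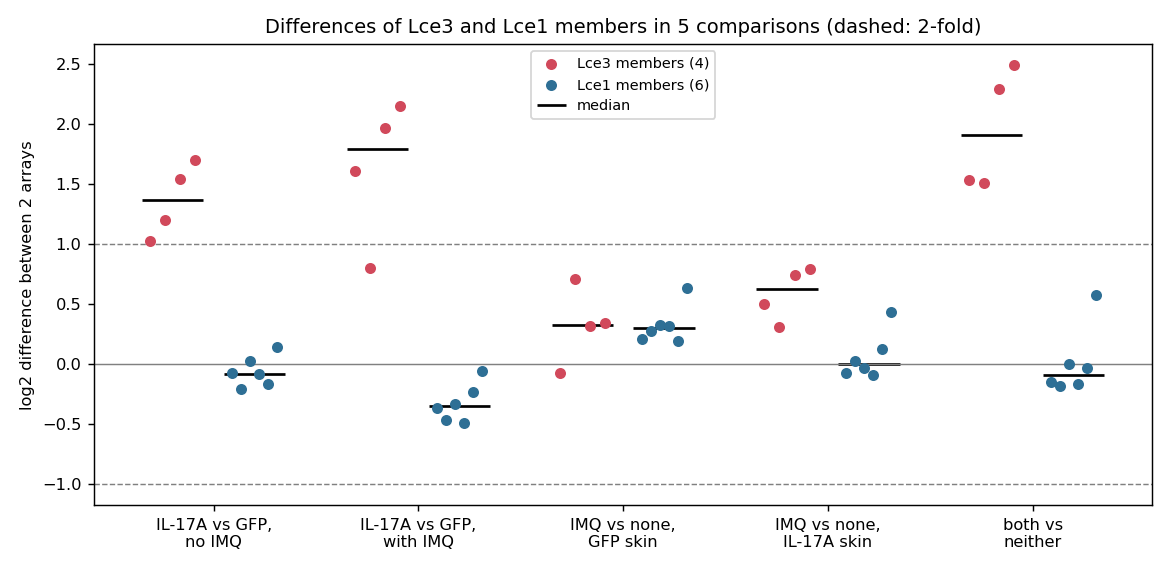
Log2 difference (vertical axis) of each of the 4 Lce3 and 6 Lce1 members in 5 comparisons between 2 arrays, with bars at the medians and dashed lines at 2-fold. Lce3 and Lce1 points separate in both IL-17A comparisons (medians 1.37 and -0.08, then 1.79 and -0.34) and overlap for IMQ in GFP skin (0.33 and 0.30).

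IMQ in GFP skin did not place the subfamilies apart at their medians, and no member reached 2-fold. The median log2 difference was 0.33 for Lce3 and 0.30 for Lce1 members, beside 0.0026 for all genes, a gap of 0.03. At the 2-fold threshold 0 of 10 members were higher, beside 0.423% of all genes, and 0 of 10 lower, beside 0.287%, or 0.711% in either direction. Lce3c (1.64-fold) and Lce1g (1.55-fold) were the highest of their subfamilies, and the brightest Lce3b probe was 1.05-fold lower. Of the other Lce3b probes, ILMN_2619519 was 1.21-fold lower and ILMN_2621158 1.18-fold higher, so the probes differed in direction. All 6 Lce1 members were above 0, from 0.20 to 0.64 on the log2 scale. This difference depended in part on the scaling. With no scaling between arrays, the median of all genes was -0.12, that of the Lce1 members 0.17, and Lce1f turned to -0.02.

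In IL-17A skin, the IMQ comparison separated the subfamilies by less than the IL-17A comparisons did. Lce3 members were 1.24-fold to 1.73-fold higher with IMQ, and the Lce1 members lay between 1.06-fold lower and 1.35-fold higher. The medians were 0.63 and -0.00035 on the log2 scale. Of the 4 Lce3 members, 3, all but Lce3c, were above the highest Lce1 member, Lce1g. Lce1g was itself 242nd from the top of 12523 genes. At the 2-fold threshold 0 of 10 members were higher, beside 0.168% of all genes, and 0 of 10 lower, beside 0.0799%, or 0.248% in either direction. Lce3f and Lce3e, at 1.73-fold and 1.68-fold, were 57th and 73rd from the top of 12523 genes. The other Lce3b probes, at 2.04-fold and 2.40-fold, passed 2-fold here, where the brightest was at 1.42-fold.

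With both treatments against neither, 4 of 4 Lce3 members passed 2-fold upward, beside 1.43% of all genes, and 0 of 6 Lce1 members were 2-fold apart, beside 2.64% of all genes (1.21% lower). Lce3f was 5.64-fold, Lce3e 4.90-fold, Lce3b 2.91-fold and Lce3c 2.86-fold higher. The Lce1 median was -0.09, where Lce1g was 1.49-fold higher and the other Lce1 members lay between -0.18 and 0.00 on the log2 scale. The IL-17A difference with IMQ minus that without was positive for Lce3b (0.58), Lce3f (0.45) and Lce3e (0.42) and negative for Lce3c (-0.40). It was negative for all 6 Lce1 members, from -0.41 for Lce1d to -0.07 for Lce1f, and that of Lce1f turned positive with median scaling and with no scaling. Without replicates these differences of differences have no error estimate.

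The Lce genes outside the chosen members were read to see whether the contrast followed the subfamily. On the Lce3 side this rests on Lce3a, the only other Lce3 gene with a probe. RefSeq places 21 Lce genes on chromosome 3, and 18 of the 21 had a probe. In the order of these genes, with other genes left out, the Lce3 genes lie together between Lce1l and Lce1m. Lce3a had signals of 252 in IL-17A with IMQ and 92.0 in GFP with IMQ skin, and 134 in IL-17A and 83.8 in GFP skin. It was 1.95-fold higher in IL-17A skin with IMQ and 1.33-fold higher without. Its window held ATAAAA but not AGGATAAAAG. Over all 5 Lce3 genes with a probe, the median log2 difference was 1.61 with IMQ and 1.20 without. Of these 5, 3 were at least 2-fold higher with IMQ and 4 without, beside 1.08% and 0.854% of all genes.

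Lce1m, the next Lce gene after Lce3f, had signals of 13429.9 in IL-17A with IMQ and 23911 in GFP with IMQ skin. Without IMQ they were 18563 in IL-17A and 22743 in GFP skin. Lce1m was 1.74-fold lower in IL-17A skin with IMQ, 84th from the bottom of 12523 genes, and 1.20-fold lower without. With IMQ, Lce3f and Lce1m, consecutive in the order of Lce genes, thus had log2 differences of 2.15 and -0.80. Lce1l, on the other side of the Lce3 row, was 1.59-fold lower with IMQ and 1.20-fold lower without.

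The 6 other Lce1 genes had a median of -0.52 with IMQ and -0.08 without, near the -0.34 and -0.08 of the members. With quantile scaling 12 of 12 Lce1 genes were below 0 in IL-17A skin with IMQ, where the median of all genes was 0.0035. Closest to 0 were Lce1h (-0.05) and Lce1g (-0.06), and Lce1g turned positive with median scaling and with no scaling. Lce1h, at 12.8 in IL-17A with IMQ and 15.1 in GFP with IMQ skin, was close to the detection limit and carries little weight. Lce6a, the only gene of its subfamily, was 1.31-fold lower in IL-17A skin with IMQ and 1.13-fold higher without.

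**Figure D3:**
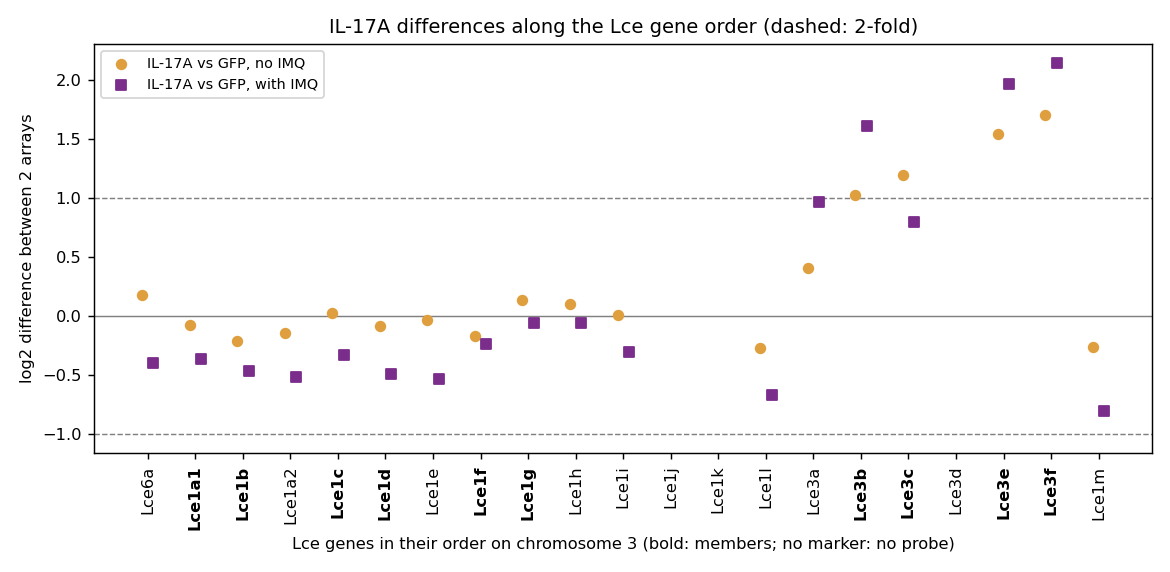
Log2 difference between IL-17A and GFP skin without IMQ (circles) and with IMQ (squares) for the 18 Lce genes with a probe, in their order along chromosome 3 (bold names are the 10 members, dashed lines are 2-fold). Points above 0.3 belong to the Lce3 row, and the flanking Lce1l and Lce1m lie below 0 in both comparisons.

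Other genes of the cornified envelope were read from lists. Small proline-rich genes, whose proteins are crosslinked into the envelope of stressed epithelia, passed 2-fold upward in IL-17A skin for 6 of 12 detected genes with IMQ, beside 1.08% of all genes, and for 5 of 12 without, beside 0.854%, and 0 passed downward. In each comparison 11 of the 12 were above 0, the exceptions being Sprr4 with IMQ (-0.24) and Sprr2a1 without (-0.10). Their medians were 1.16 and 0.75. The Sprr2d probe was 6.17-fold and the Sprr2e probe 6.08-fold higher with IMQ, and both may read relatives. Among 11 cornified envelope and fused-type S100 genes, 2 were at least 2-fold higher with IMQ, beside 1.08% of all genes. These were Tchhl1 (4.44-fold) and Rptn (2.87-fold), and the median of the list was -0.15. Flg2, a filaggrin-like protein gene, was 1.67-fold lower.

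Genes that crosslink and process the envelope had medians of 0.01 with and 0.24 without IMQ, and 0 of 17 were at least 2-fold apart, a count near the shares of all genes (1.37% and 1.86%). Tgm1, the transglutaminase of the keratinocyte membrane, was 1.45-fold higher with IMQ. Klk5, a serine protease of the stratum corneum, was 1.44-fold lower and Aloxe3, a lipoxygenase of barrier lipid synthesis, 1.37-fold lower. Regulators of late differentiation had medians of 0.05 and 0.09, and 0 of 12 were at least 2-fold apart, again near those shares. Junb, a subunit of AP-1, was 1.81-fold and Ovol1 1.74-fold higher with IMQ, and Gata3 was 1.61-fold lower.

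Epidermal markers were read beside the Lce genes. Among 7 suprabasal markers the median was -0.17 with IMQ and -0.07 without, and Krt77 was 2.18-fold lower with IMQ. Among 7 basal markers the median was -0.06 with IMQ and 0.37 without. With IMQ, Krt15 was 1.70-fold lower and Itga6 1.58-fold higher. Of 10 markers of hyperproliferative epidermis, 9 were at least 2-fold higher with IMQ, beside 1.08% of all genes. Without IMQ 8 were, beside 0.854%, and the medians were 2.38 with and 2.12 without IMQ. Krt6b was 10.4-fold and S100a8 20.5-fold higher with IMQ. The summed signal of this list was 103229 in IL-17A with IMQ and 27062 in GFP with IMQ skin, and 74313 in IL-17A and 25162 in GFP skin.

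Markers of other cell types also differed between the arrays. Hair shaft and inner root sheath markers were higher in IL-17A skin for 12 of 12 genes in both comparisons, and summed to 30175 in IL-17A with IMQ and 7596 in GFP with IMQ skin, and 18331 in IL-17A and 55.3 in GFP skin. With IMQ their median log2 difference was 1.80, beside 1.79 for the Lce3 members. With IMQ, 12 of 12 were at least 2-fold higher, beside 1.08% of all genes. Since 11 of the 12 were not above the limit in GFP skin, no size is given for the comparisons that use that array. In each of these, 12 of 12 were at least 2-fold higher. The shares of all genes there were 0.854% (IL-17A), 0.423% (IMQ) and 1.43% (both treatments). Neutrophil markers share S100a8 and S100a9 with the epidermal list. They were at least 2-fold higher for 5 of 6 genes with IMQ and 4 of 6 without, beside 1.08% and 0.854% of all genes. Their sums were 32009.9 against 1623 and 14735 against 1702. Without S100a8 and S100a9 the sums of the other 4 were 1083 against 117 and 605 against 145. Macrophage markers were lower in 5 of 5 genes in both comparisons, with sums of 5922 against 9633 and 6741 against 17908. At least 2-fold lower were 0 of 5 with IMQ, beside 0.287% of all genes, and 4 of 5 without, beside 1.01%. Fibroblast markers had medians of -0.03 with IMQ and -0.72 without, adipocyte markers -0.04 and 0.08, and skeletal muscle markers -0.03 and 0.07. The part of these shifts in the Lce3 differences was not tested.

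**Figure D4:**
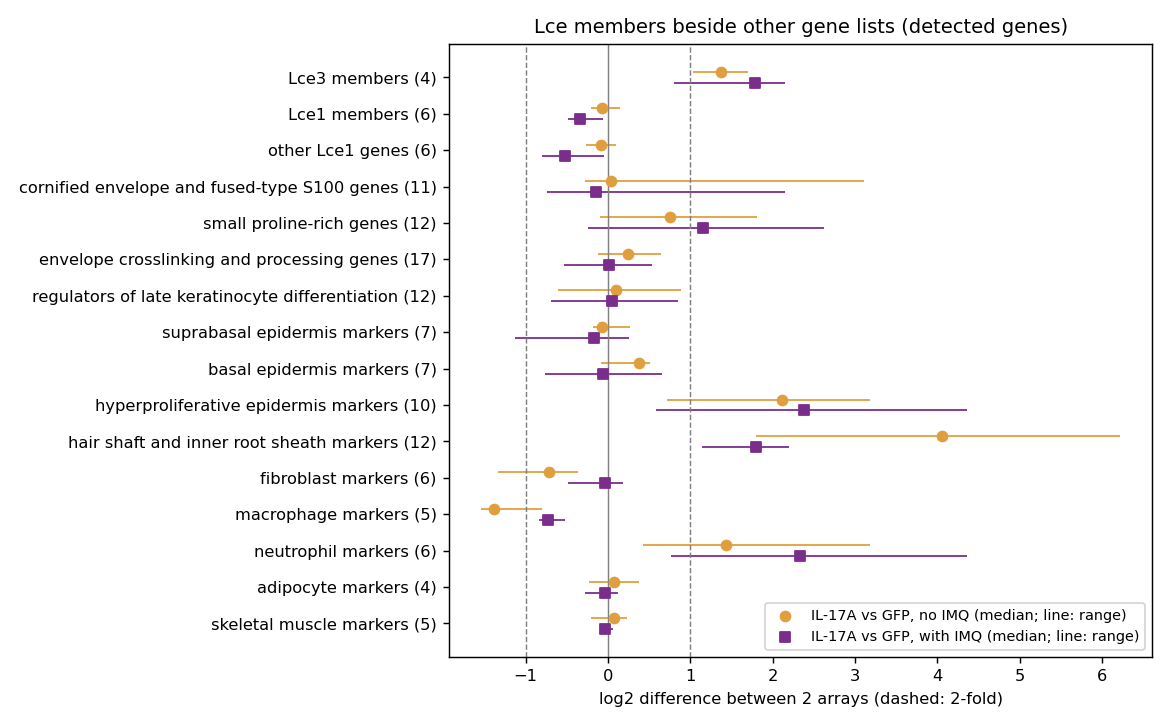
Median log2 difference (symbols) and range (lines) between IL-17A and GFP skin without IMQ (circles) and with IMQ (squares) for the Lce groups and 13 gene lists, with the number of detected genes in brackets and dashed lines at 2-fold. Lce3 members (1.37 and 1.79) are plotted to the right of 0, as are the small proline-rich (0.75 and 1.16), hyperproliferative (2.12 and 2.38), neutrophil (1.44 and 2.33) and hair lists (1.80 with IMQ; the point without IMQ rests on probes not above the limit in GFP skin), and Lce1 members (-0.08 and -0.34) and suprabasal markers (-0.07 and -0.17) lie closer to it.

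The genes whose values over the 4 arrays were most like those of the Lce3 members were searched among 2035 genes outside the family that spanned at least 0.5 on the log2 scale. Likeness was the root mean square difference between profiles centred on their own means. The 5 closest to the mean Lce3 profile were Il33 (0.07), an epithelial alarmin cytokine, Slpi (0.07), a secreted protease inhibitor, Serpinb6c (0.13), Krt84 (0.15) and Wfdc12 (0.15). The Lce3 members themselves lay 0.14 (Lce3e) to 0.30 (Lce3c) from that mean. Slpi had signals of 1831 in IL-17A with IMQ and 487 in GFP with IMQ skin, and 1133 in IL-17A and 408 in GFP skin.

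Closest to the mean Lce1 profile were Klrg1 (0.04), Mir17hg (0.05), Fgd6 (0.06), Mfsd11 (0.06) and Golga7b (0.06). The mean Lce1 profile was flatter than the span asked of candidates, so genes as flat as Lce1 were not among them. Klrg1 and Golga7b were above the detection limit on 1 array only, at 21.3 and 17.5 in GFP with IMQ skin. The Lce1 members lay 0.04 to 0.20 from their mean, with Lce1g the farthest. With 4 arrays such profiles hold few values.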

How the data were processed

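Total RNA of dorsal skin was labelled as biotinylated cRNA with the Ambion MessageAmp kit after extraction with the QIAGEN RNeasy mini kit, per the labels' protocols. The deposited table of unnormalized values holds 1 linear intensity per probe for 45281 probes, with a background already subtracted (32.3% to 33.7% of values were below 0) and no detection p-values. The second deposited table holds the authors' normalized log2 values; its method is not given in the sources used here. Intensities were corrected with normexp (offset 50) and quantile-normalized in limma 3.58.1 under R 4.3.3. The detection limit was the 0.99 quantile of the sizes of the values below 0 on each array. For each gene the brightest detected probe (over the limit somewhere among the arrays) was kept, leaving 12523 genes. A gene counted as higher or lower at 2-fold if the brighter array was above its limit. Summaries used Python 3.11.15, pandas 2.3.3, numpy 2.4.6 and Biopython 1.88 (global alignment: match 1, mismatch -1, gap -3 and -0.5). The procedure was tested on simulated data. In these, large changes were planted only in bright probes of the IL-17A array, so dim probes and smaller changes were not covered.

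Symbols came from the platform annotation: 34885 probes had 1, 18 several and 10378 none, and all 10 member genes were found in RefSeq. Groups and columns followed the labels. Each group has 1 array, so no test was made, and the number of arrays limits the precision. The members and gene lists were chosen with earlier results of these data known. Named were all members, up to 3 genes per list with the largest IL-17A difference under IMQ, and the 5 genes most like each subfamily; the strings marked in the promoters, Lce3a, Lce1h, Lce1l, Lce1m and Lce6a among the other Lce genes, and Sprr4 and Sprr2a1, were picked after their letters or values were seen. Alternatives were an offset of 16, no background correction (values under 10 set to 10), median scaling, the authors' values, averaging all probes per gene and detection on all 4 arrays. Added after seeing the data were no scaling, all Lce3 and Lce1 genes, and the other Lce3b probes.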

Additional observations from a re-analysis of the deposited data

Results flagged for a closer look

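Some differences had opposite signs at the levels of the other treatment. With 1 array per group, these differences between groups were not tested. The IMQ difference of the brightest Lce3b probe was 0.51 in IL-17A and -0.07 in GFP skin on the log2 scale, 0.58 apart. That of Lce1a1 was -0.07 in IL-17A and 0.21 in GFP skin (-0.29 apart), that of Lce1c -0.03 and 0.33 (-0.36 apart), and that of Lce1d -0.08 and 0.32 (-0.41 apart). The median of the Lce1 members was -0.00035 in IL-17A and 0.30 in GFP skin (-0.30 apart). For IL-17A against GFP skin, Lce1c was at -0.33 with and 0.03 without IMQ (-0.36 apart) and Lce1g at -0.06 with and 0.14 without IMQ (-0.20 apart).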

How the results depend on the processing

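Over all settings tried, including those chosen after seeing the data, the Lce3 and Lce1 medians and the gap between them moved by less than 1.5-fold in every comparison. Their sign changed in 1 case: the gap for IMQ in GFP skin was 0.03 and became -0.022 with the authors' normalized values. With the mean of its 3 probes, Lce3b reached 2.32 with IMQ and 2.28 for both treatments against neither, in place of 1.61 and 1.54; no other member moved by 1.5-fold under any setting. Counts of genes at least 2-fold apart did change. For IL-17A without IMQ the count was 233, and 947 without background correction and 476 with the authors' values. For IL-17A with IMQ it was 171, against 850, 348 and, with detection on all 4 arrays, 111. For IMQ in GFP skin it was 89, against 739, 264, 47 and, with an offset of 16, 159. For IMQ in IL-17A skin it was 31, against 441 and 102, and 47 with an offset of 16, and for both treatments 331, against 1166 and 607. In IMQ in GFP skin, 53 genes were higher and 36 lower, and 48 and 72 with median scaling. For IMQ in IL-17A skin, 21 were higher and 10 lower, and 11 and 10 with no scaling. No paired analysis was possible because each group has 1 array. Signals near the limit of 12.5 to 13.7, such as Lce1h, cannot be ranked.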
